A study of Mus musculus with 6 samples.

Results

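Long noncoding RNAs were followed through ribosome footprint libraries of ID8, a tumour-forming cell line of mouse ovarian epithelial origin. The RNAs were Malat1, Neat1, Gm42418, Gm26917, Gas5 and Snhg1. The members were the 6 of the 53465 genes in the count table whose Ensembl identifiers carry these symbols in GENCODE M21. They were chosen by symbol with the counts of this same table in view, so their levels are given as a description, and the comparison of KO with WT is no independent evidence. The study compared 3 libraries labelled WT, from cells with the control guide sgNC, with 3 labelled KO, from cells with the guide sgNat10. The latter targets Nat10, whose product acetylates cytidines in RNA. All 6 libraries came from cells held in cycloheximide at 100 µg/mL for 2 minutes. The labels do not say whether a group is a clone or a pool, nor whether replicates were separate cultures. The p-values therefore reflect no more than the variation among these libraries, which may be technical.

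Ribosome profiling digests a lysate with nuclease and sequences the short fragments that survive, most of them pieces of mRNA shielded by translating ribosomes. Pieces of ribosomal RNA, of structured RNA and of RNA bound by other particles that sediment through the cushion also survive. Long noncoding RNAs differ in where they reside. Malat1 collects in nuclear speckles, Neat1 builds paraspeckles, and Gas5 and Snhg1 are spliced host transcripts that carry small nucleolar RNAs (snoRNAs) in their introns. The spliced RNAs of Gas5 and Snhg1 reach the cytoplasm, where they are known to meet ribosomes and to be degraded by nonsense-mediated decay.

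Gm26917 and Gm42418 lie side by side on chromosome 17, and the sequences at their edges are shown because they place both genes against ribosomal RNA sequence. In GENCODE M21 on GRCm38, Gm26917 (ENSMUSG00000097971) covers chr17:39843013-39846341 on the plus strand, with 3329 bases of exon. Gm42418 (ENSMUSG00000098178) is a single exon of 1831 bases at chr17:39846958-39848788 on the plus strand. RefSeq places the pseudogene Rn18s-rs5, described as 18s RNA, related sequence 5, at chr17:39846354-39848202 on the plus strand and lists Gm42418 among its synonyms. Rn18s-rs5 starts 12 bases after the end of Gm26917 and shares 1245 bases with Gm42418, which is 68.0% of Gm42418. The remaining 586 bases of Gm42418 lie beyond its end. The 3 windows below are from the RefSeq genome GRCm38.p6, plus strand, at chr17:39846294-39846413, chr17:39846928-39847047 and chr17:39848143-39848262. Capitals mark Rn18s-rs5 in the first and the last window and Gm42418 in the middle one.
Gm26917 end: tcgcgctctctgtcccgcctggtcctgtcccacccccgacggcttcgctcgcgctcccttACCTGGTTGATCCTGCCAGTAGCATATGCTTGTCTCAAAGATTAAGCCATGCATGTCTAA
Gm42418 start: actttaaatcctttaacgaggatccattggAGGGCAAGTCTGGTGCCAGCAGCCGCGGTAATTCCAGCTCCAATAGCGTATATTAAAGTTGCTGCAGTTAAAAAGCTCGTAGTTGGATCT
18S-related end: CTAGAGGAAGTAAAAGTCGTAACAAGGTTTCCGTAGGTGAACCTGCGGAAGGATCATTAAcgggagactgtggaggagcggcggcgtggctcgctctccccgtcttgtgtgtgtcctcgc

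**Figure D1:**
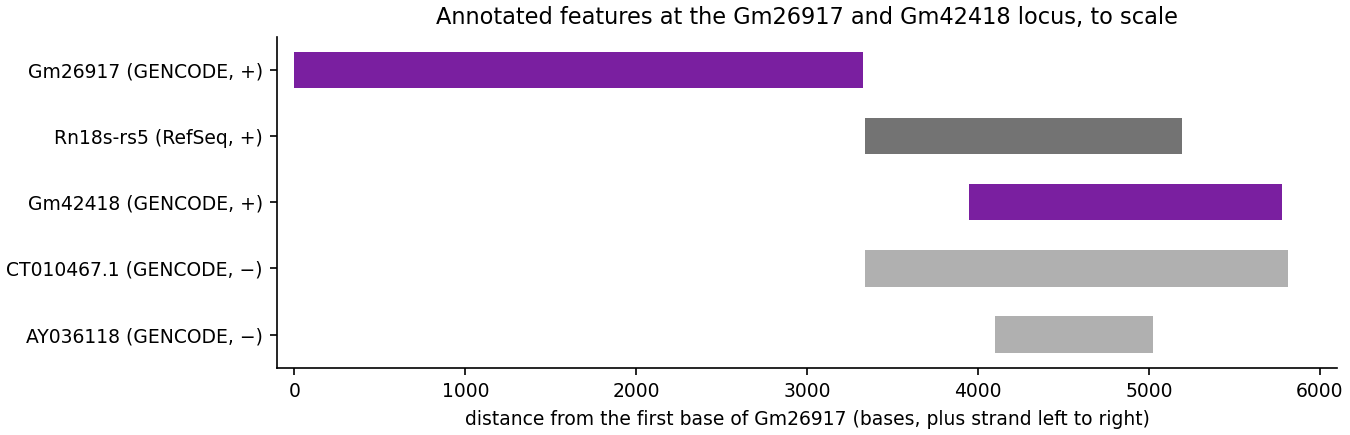
Map to scale of the annotated features at the Gm26917 and Gm42418 locus, with distance in bases from the first base of Gm26917 on the horizontal axis, 1 row per feature and its strand in parentheses. Gm26917 ends 12 bases before Rn18s-rs5, and Gm42418 starts inside Rn18s-rs5 and runs 586 bases past it.

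Total counts ran from 1687466 to 2148715 in WT and from 2234305 to 3126208 in KO. Levels are given in CPM, counts scaled to 1000000 of the library size after edgeR's TMM adjustment. Of 8200 genes tested with edgeR's quasi-likelihood test, 33 (0.402%) passed a Benjamini-Hochberg adjusted p of 0.05, 15 higher (0.183%) and 18 lower (0.220%) in KO. With plain library totals, which moved the median log2 fold change of all genes from -0.016 to 0.093, 43 passed, 27 higher and 16 lower. Nat10 footprints did not pass (log2 fold change -0.074, SE 0.48, adjusted p = 1 in edgeR). The guide's cut site is not given, so this count does not check the labels. Of 8 ID8 identity markers tested 3 passed in edgeR. The keratins Krt19 (log2 fold change -0.92, adjusted p = 0.0044) and Krt18 (-1.74, adjusted p = 0.0195) fell in KO and mesothelin, Msln, rose (1.05, adjusted p = 0.0145). Not every marker was present throughout, since Krt8 had 1 count in KO replicate 1 and Cdh1 had 0 counts in 4 libraries. Of 8 leukocyte markers listed 5 had counts, and together they summed to at most 43.5 CPM in a library. The 1 tested, Cd14, had 13.3 ± 14.6 CPM in WT against 4.58 ± 4.07 CPM in KO (SD, n = 3 each) and did not pass in edgeR. Of 6 fibroblast and endothelial markers 5 had counts, and they summed to less. In bulk lysates, fewer cells with an RNA and less of it per cell cannot be told apart.

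Each library's histogram of gene counts had a peak well above single reads, and the count at that peak is called the modal count here. It was 15, 21 and 39 in WT and 42, 46 and 60 in KO, without overlap. Modal count and group therefore cannot be told apart. Dividing a count by it gives what are called molecule equivalents here, which are used below as a second scale. Whether the peak is the count left by a single molecule was not tested, so they are not numbers of molecules.

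All 6 RNAs passed the filter on low counts, and 1 of the 6 passed the test in edgeR, against 0.402% of all genes. That gene was Gm42418. It was also the 1 called gene among 43 tested GENCODE long noncoding RNA genes, whose median log2 fold change was -0.25 against -0.016 over all genes. The groups did not overlap for 2 of the 6, Gm42418 and Gm26917, and for 14.9% of all tested genes. Fold changes were positive for 4 of the 6.

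Gm42418 had the highest mean CPM of any gene in the table, although mt-Rnr2 held more counts in WT replicate 3 and KO replicate 1. Its level was 127210, 148770 and 129370 CPM in WT, against 100160, 89190 and 94447 CPM in KO. Every KO library lay below every WT library. The mean fell from 135110 ± 11872 CPM (SD, n = 3) to 94600 ± 5488 CPM (SD, n = 3), a log2 fold change of -0.51 (SE 0.082, 95% interval -0.69 to -0.34, adjusted p = 0.0099 in edgeR). The gene was among the 0.220% of tested genes that were called lower. The call was lost in edgeR without WT replicate 2 (adjusted p = 0.144), without WT replicate 3 (adjusted p = 0.105) and without KO replicate 1 (adjusted p = 0.0615). The log2 fold change stayed between -0.56 and -0.44 when each library was left out in turn. Gm42418 took 12.9% ± 0.855 of all counts in WT and 9.72% ± 0.390 in KO (SD, n = 3 each, exact two-sided permutation p = 0.1, the smallest that 20 assignments allow). Per the labels' protocols, rRNA reads had been removed before these counts were made, so the values describe what remained after that step, and its part in the difference was not tested.

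**Figure D2:**
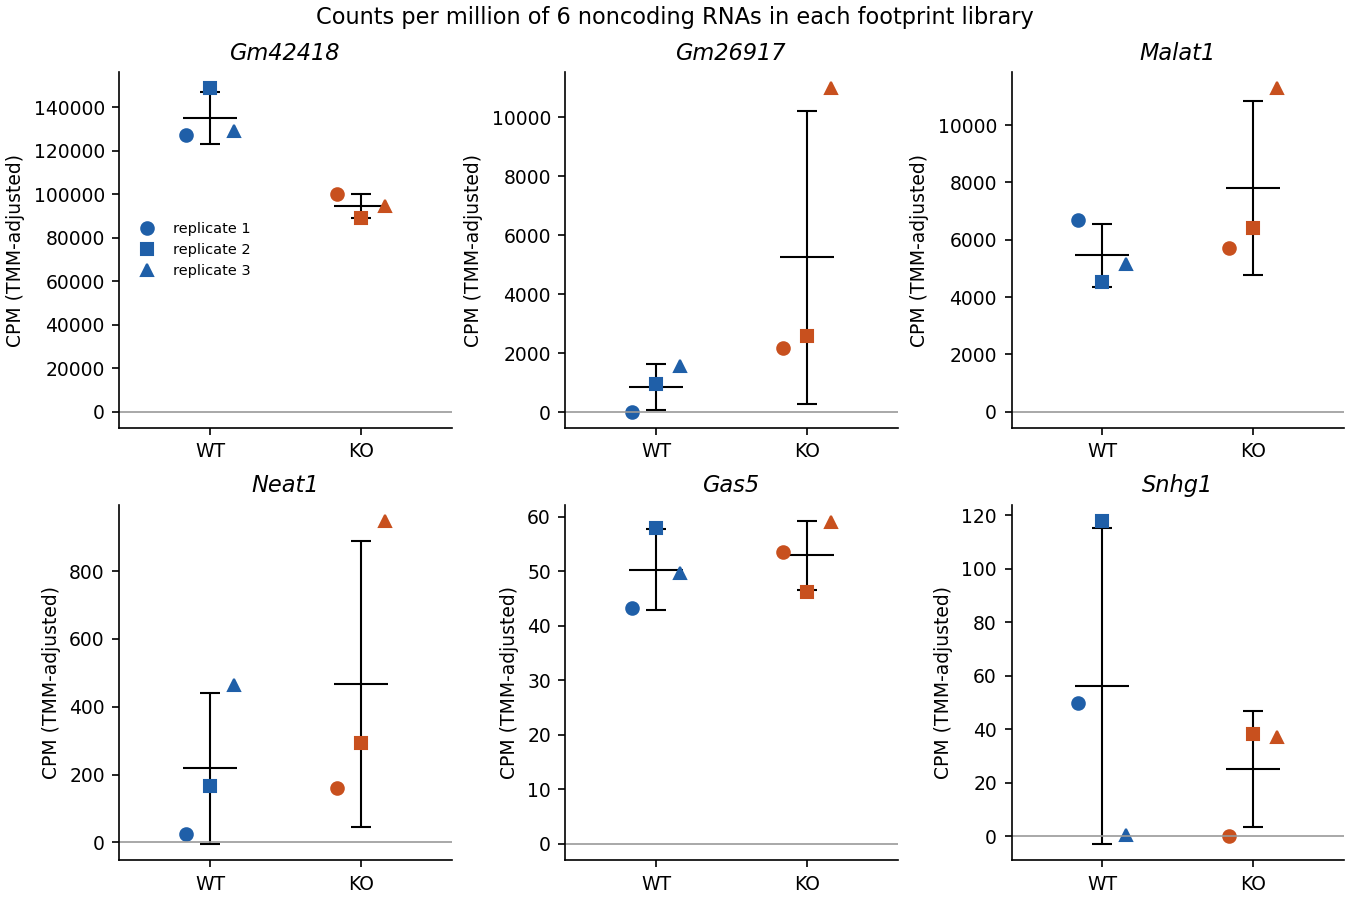
Level of each of the 6 RNAs in CPM (vertical axis, linear, a separate scale per panel) in the 3 WT libraries (blue) and the 3 KO libraries (orange). Marker shapes give the replicate number and black bars the mean and SD. Gm42418 is lower in every KO library, Gm26917 is higher in every KO library, and KO replicate 3 is the highest point for Gm26917, Malat1 and Neat1.

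Gm26917, the neighbour that ends just before the 18S-related sequence shown above, varied more than any other member with counts in all libraries. It held 38, 1940 and 2715 counts in WT, against 5631, 6062 and 35397 in KO. In CPM, WT had 23.1, 969 and 1570 and KO had 2197, 2596 and 10981. The groups did not overlap, yet the highest library was 475 times the lowest. The means were 854 ± 780 CPM and 5258 ± 4961 CPM, WT first (SD, n = 3 each). The log2 fold change of 2.62 had an SE of 1.62, a 95% interval from -1.79 to 7.04, and an adjusted p of 1 in edgeR. Without KO replicate 3 it was 1.48. The 6 libraries stood in the same order for Gm26917 as for the modal count, and the part of the modal count in the result was not tested.

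The adjacent genes were also set against each other. Gm26917 had 0.182, 6.52 and 12.1 counts per 1000 counts of Gm42418 in WT and 21.9, 29.1 and 116 in KO. The ratio was higher in every KO library (exact two-sided permutation p = 0.1, the smallest possible). Gm26917 was higher and Gm42418 lower in every KO library, so this order and its p were fixed in advance. The ratio therefore adds no evidence to the results of the separate genes. Genes annotated on the opposite strand of Gm42418 held nothing. CT010467.1, an rRNA gene that covers all 1831 bases of Gm42418, and AY036118, a long noncoding RNA gene of 923 bases inside it, had 0 counts in every library. A count of 0 allows up to 3 counts, or 0.931 to 1.82 CPM depending on the library, for counting error alone. How strand was handled in the counting is not stated in the labels.

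Other genes known to collect rRNA reads were compared with the pair. Of the 10 rRNA-like loci listed, 6 were tested, and 1 of them, Gm42418, passed. The median log2 fold change of these 6, both genes of the pair included, was -0.45, and Gm26917 alone was positive. Gm15564, an antisense RNA, had 790 ± 40.7 CPM in WT against 459 ± 170 CPM in KO (SD, n = 3 each) but did not pass (log2 fold change -0.78, adjusted p = 0.387 in edgeR). It passed with DESeq2 (adjusted p = 0.0463) and in edgeR on molecule equivalents (adjusted p = 0.0413). The mitochondrial 16S rRNA gene mt-Rnr2 had 109540 ± 27006 CPM in WT against 83905 ± 19361 CPM in KO (SD, n = 3 each, adjusted p = 0.693 in edgeR). The 12S gene mt-Rnr1 had a log2 fold change of -0.34 (SE 0.20) and Lars2, a mitochondrial leucyl-tRNA synthetase gene, one of -0.55 (SE 0.29). Per 1000 counts of mt-Rnr2, Gm42418 had 1560, 1332 and 955 counts in WT and 1000, 1002 and 1511 in KO. On that scale the groups overlapped (exact two-sided permutation p = 0.7).

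Malat1 was the most abundant of the named nuclear RNAs. Malat1 (ENSMUSG00000092341) is annotated on the minus strand at chr19:5795690-5802672, and its exons together cover 6983 bases. Its level was 6677, 4542 and 5142 CPM in WT and 5704, 6412 and 11278 CPM in KO. The groups overlapped, and KO replicate 3 was well above the other libraries. The means were 5453 ± 1101 CPM and 7798 ± 3035 CPM (SD, n = 3 each), with a log2 fold change of 0.52 (SE 0.22, 95% interval 0.054 to 0.98, adjusted p = 0.635 in edgeR). Without KO replicate 3 the log2 fold change was 0.15. Malat1 passed under 1 of 15 other settings, with no count filter (adjusted p = 0.0352 in edgeR).

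Neat1 lies beside it on the same strand and was far less abundant. Neat1 (ENSMUSG00000092274) covers chr19:5824708-5845478 with 20771 bases of exon. It had 25.5, 167 and 463 CPM in WT and 160, 293 and 948 CPM in KO. WT replicate 1 was the lowest and KO replicate 3 the highest, and the groups overlapped. The means were 219 ± 223 CPM and 467 ± 422 CPM (SD, n = 3 each), and the log2 fold change of 1.10 had an SE of 1.10 (95% interval -1.62 to 3.81, adjusted p = 1 in edgeR). Without KO replicate 3 it was 0.044, and without WT replicate 3 it was 2.27. Per 1000 counts of Malat1, Neat1 had 3.83, 36.9 and 90.1 counts in WT and 28.1, 45.7 and 84.1 in KO (exact two-sided permutation p = 0.8).

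Across the 4 abundant RNAs, 6 pairs were correlated over the 6 libraries on the log2 scale. Neat1 and Gm26917 had Pearson's r of 0.94 (exact permutation p = 0.0139, Benjamini-Hochberg adjusted p = 0.0833) and Spearman's rho of 0.71 (exact permutation p = 0.136, adjusted p = 0.272). Without WT replicate 1 and KO replicate 3, the libraries farthest from the median of Neat1, r was 0.20. Leaving out its extremes narrows the range of Neat1, so this value cannot decide whether the relation rests on those 2 libraries. The r of the other 5 pairs ran from -0.64 to 0.36, with adjusted exact permutation p of 0.447.

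Of 23 nuclear and other well-known long noncoding RNAs listed, 22 were in the table, 12 had counts, 7 were tested and 0 passed in edgeR, where 1, Malat1, had an unadjusted p under 0.05. Their median log2 fold change was 0.52, and 4 of the 7 were positive. Besides Malat1 and Neat1 they were thinly counted. Tug1, for example, had 24.7 ± 36.4 CPM in WT against 20.8 ± 14.2 CPM in KO (SD, n = 3 each). Proteins of paraspeckles and speckles, the bodies where Neat1 and Malat1 reside, were read from the same fit. Of 20 tested, 0 passed in edgeR, 4 had an unadjusted p under 0.05, 4 were positive and the median log2 fold change was -0.23. The 2 with the smallest p were Srsf7, a splicing factor (-0.71, adjusted p = 0.528 in edgeR), and Srrm2, a scaffold of speckles (0.49, adjusted p = 0.57).

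Gas5 (ENSMUSG00000053332) is annotated at chr1:161034422-161038539 on the plus strand, with 25 transcripts and 3760 bases of exon. Host genes of this kind often start at a C followed by pyrimidines, the terminal oligopyrimidine tract that makes translation of ribosomal protein mRNAs respond to growth signals. The start regions are shown for that reason. The windows come from RefSeq on GRCm38.p6, each with 10 bases before the start and 50 from it, and capitals mark the unbroken pyrimidine run that begins at the start. Gas5 is at chr1:161035156-161035215 (plus strand), Snhg1 at chr19:8723477-8723536 (plus strand) and Malat1 at chr19:5802623-5802682 (minus strand).
Gas5: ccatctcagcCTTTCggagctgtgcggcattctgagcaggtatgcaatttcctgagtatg
Snhg1: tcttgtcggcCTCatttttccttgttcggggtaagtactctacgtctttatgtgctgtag
Malat1: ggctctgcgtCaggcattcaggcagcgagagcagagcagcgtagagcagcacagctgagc
The run was 5 bases in Gas5, 3 in Snhg1 and 1 in Malat1. A C at the start followed by at least 4 more pyrimidines on the gene's strand occurs in 823 of the 32851 promoters in the RefSeq table (2.51%). Another start listed for Gas5, at position 161034601, begins with G.

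Gas5 was the most even of the 6 across libraries. It had 43.2, 58.0 and 49.7 CPM in WT and 53.4, 46.2 and 58.9 CPM in KO. The highest library was 1.37 times the lowest, and the groups overlapped throughout. The means were 50.3 ± 7.41 CPM and 52.9 ± 6.37 CPM (SD, n = 3 each), with a log2 fold change of 0.072 (SE 0.59, 95% interval -1.19 to 1.33, adjusted p = 1 in edgeR). The interval leaves room for a change of more than 1 log2 unit in either direction. Behind these values stood 71 to 190 counts per library, or 3.54 molecule equivalents on average.

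Snhg1 (ENSMUSG00000108414), at chr19:8723475-8726443 on the plus strand, had a mean of 40.6 CPM over all 6 libraries, against 51.6 CPM for Gas5, and came and went between libraries. Its counts were 82, 236 and 1 in WT and 0, 89 and 120 in KO. The count of 0 in KO replicate 1 allows up to 1.17 CPM for counting error alone, while the modal count of that library was 42. In molecule equivalents Snhg1 had 5.47, 11.2 and 0.026 in WT and 0, 1.93 and 2.0 in KO. In CPM the libraries had 49.9, 118 and 0.578 in WT and 0, 38.1 and 37.2 in KO, so that 1 library of each group was near nothing. The means were 56.1 ± 58.9 CPM and 25.1 ± 21.8 CPM (SD, n = 3 each), with a log2 fold change of -1.16 (SE 1.42, 95% interval -4.19 to 1.87, adjusted p = 1 in edgeR). Without WT replicate 2 it was -0.0088.

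The other snoRNA hosts without a protein were scarcer. Of 21 listed, 18 were in the table, 14 had counts and 5 were tested, and 0 passed in edgeR, also at an unadjusted p under 0.05. The 5 tested had a median log2 fold change of -0.38, and 1 of them, Gas5, was positive. Snhg3 had 13.7 ± 11.9 CPM in WT against 12.7 ± 13.1 CPM in KO, Snhg5 had 16.3 ± 14.6 and 8.48 ± 14.7 CPM, and Snhg6 had 11.6 ± 12.2 and 8.90 ± 9.72 CPM (SD, n = 3 each). Each of these 3 was at 0 in at least 1 library. Snhg8, Snhg12, Snhg15, Snhg18 and Snhg20 each had counts in a single library.

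The snoRNA genes carried in the introns of both hosts received no counts. The 10 snoRNA genes annotated inside Gas5 and the 8 inside Snhg1 had 0 counts in every library. They lie on the strand of their hosts, and in Snhg1 the merged exons of the host cover them. How a read that overlaps both a host and a snoRNA gene was counted is not given. These zeros therefore cannot show that snoRNA fragments were absent. Zbtb37, which overlaps the start of Gas5 by 428 bases on the other strand, had 46 counts over all 6 libraries. Slc3a2, which encodes the heavy chain of an amino acid transporter, starts 106 bases from Snhg1 on the opposite strand and had 308 to 700 counts per library. Unlike Snhg1 it was present in all 6.

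Hosts whose spliced RNA encodes a protein give the measure of a translated host. Of 38 listed, all had counts and 37 were tested. None passed in edgeR, with 5 at an unadjusted p under 0.05, 15 of 37 were positive and the median log2 fold change was -0.11. Eif4a1, a helicase of translation initiation, had 734 ± 213 CPM in WT against 442 ± 62.9 CPM in KO (log2 fold change -0.73, adjusted p = 0.418 in edgeR). Eef2, the factor of ribosome translocation, had 2152 ± 152 CPM and 2856 ± 340 CPM (0.41, adjusted p = 0.512). Their summed level was 19641 to 23481 CPM per library. The nonsense-mediated decay factors, which act on spliced host RNA, had 0 of 19 passing in edgeR, 2 at an unadjusted p under 0.05, 11 positive and a median of 0.21. The 2 with the smallest p were the release factors Etf1 (-0.84, adjusted p = 0.425 in edgeR) and Gspt1 (-1.02, adjusted p = 0.547).

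**Figure D3:**
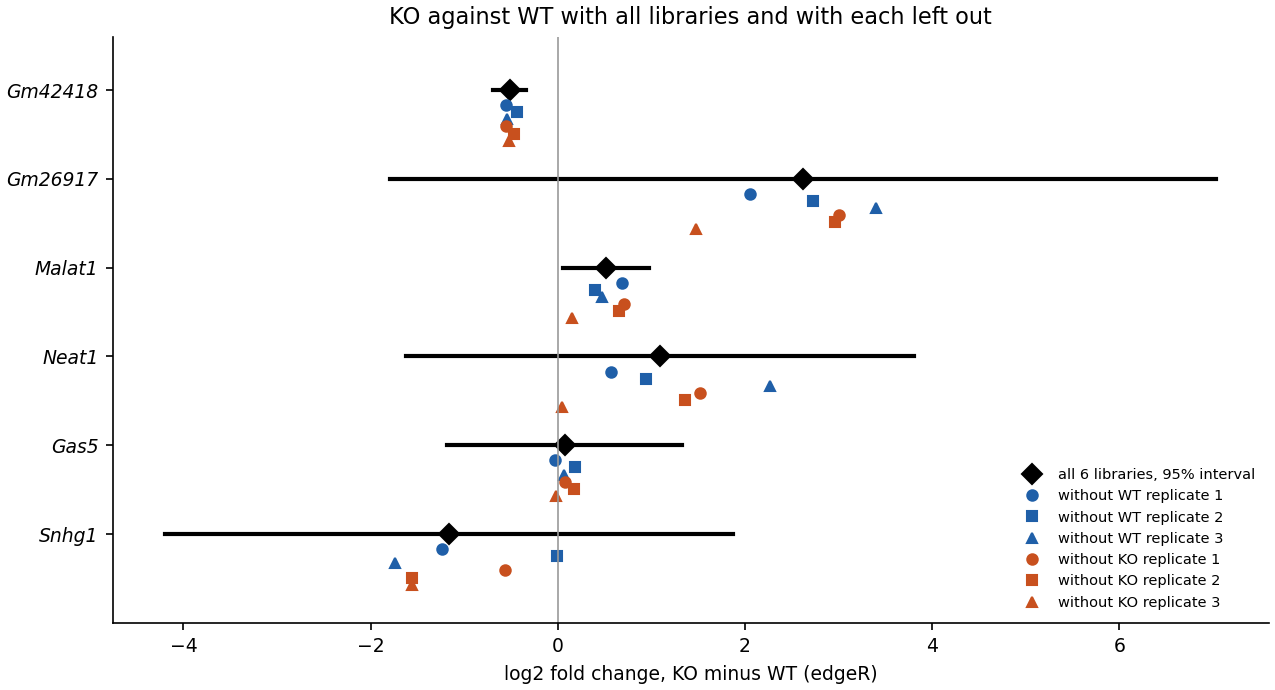
Log2 fold change of KO minus WT from edgeR (horizontal axis) for the 6 RNAs (rows). Black diamonds and lines give the value and 95% interval with all 6 libraries, and coloured markers the value with each library left out. Gm42418 stays between -0.56 and -0.44, while Gm26917 runs from 1.48 to 3.41 and Neat1 from 0.044 to 2.27.

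Levels of different RNAs were compared per kilobase. Density is the mean CPM over all 6 libraries per kilobase of exon for the noncoding RNAs, and per kilobase of coding sequence for the 8087 tested protein-coding genes, whose median was 25.3 CPM per kb. Gm42418 had 62729 CPM per kb, above every coding gene. Malat1 had 949 and Gm26917 918 CPM per kb, and 0.754% and 0.804% of coding genes were denser. The value of Gm26917 rests on KO replicate 3. Its libraries had 6.94, 291 and 472 CPM per kb in WT, against 660, 780 and 3299 in KO, and the mean without KO replicate 3 was 442. Neat1 had 16.5, Gas5 13.7 and Snhg1 13.7 CPM per kb, all below the coding median, with 64.1%, 69.9% and 69.9% of coding genes denser. For Gas5 and Snhg1 the length merges the exons of all annotated transcripts. In Snhg1 those 2969 bases span the whole gene, introns of its spliced RNA included. Gas5-209, an annotated transcript, has 346 bases. A shorter length would give a higher density. Density per kilobase of spliced RNA was not computed, so where these hosts stand against coding genes depends on the length used. Neat1 had 10.7 CPM per kb without KO replicate 3, and Snhg1 8.47 without WT replicate 2. With the longest annotated transcript as its length, Gas5 had 20.2 CPM per kb. By these means over WT and KO together the order was Gm42418, then Malat1 and Gm26917, then the other 3. It did not hold in every library, since in WT replicate 1 Gm26917 lay below Gas5 (11.5 CPM per kb) and Snhg1 (16.8 CPM per kb). Among the last 5 the ranges of neighbours in this order overlap, while every library of Malat1 lay above every library of Neat1, Gas5 and Snhg1. Among structured RNAs that ribosomes do not read, Rn7sk, a regulator of transcription elongation, had 160 CPM per kb and Rny3, a Y RNA, 335 CPM per kb. A density inside the range of coding genes was thus also seen for RNAs that are not translated. Of the 14 structured RNAs listed 6 were tested and 0 passed in edgeR, also at an unadjusted p under 0.05.

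**Figure D4:**
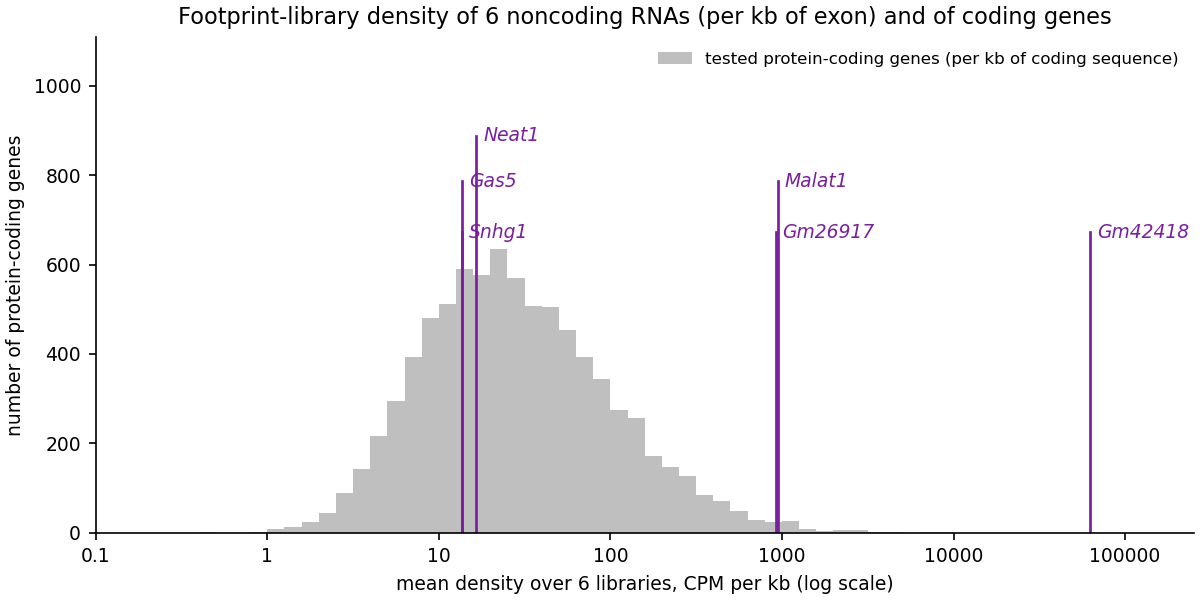
Histogram of the density of 8087 tested protein-coding genes in CPM per kb of coding sequence (grey, log scale on the horizontal axis) with the density of the 6 RNAs per kb of exon as vertical lines, whose heights only separate the labels. Neat1, Gas5 and Snhg1 fall left of the coding median of 25.3, Malat1 and Gm26917 lie in the upper tail, and Gm42418 lies beyond all coding genes. The exon length of Gas5 and Snhg1 merges all annotated transcripts, and their place depends on the length used.

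Whether a short fragment can be placed was described from the sequence. Each exon sequence was split into all words of 28 bases, and each word was sought in 66 sequences of the GRCm38.p6 primary assembly on both strands. A word found at any place besides its own position counts as found elsewhere, so repeats within the gene itself are included. For Gm42418, 532 of 1804 words (29.5%) were found elsewhere, 342 of them on chromosome 6 between positions 3201047 and 3201643. For the other 5 the share was 1.44% in Gas5, 2.46% in Malat1, 2.48% in Gm26917, 2.67% in Neat1 and 2.96% in Snhg1. The median of the 43 tested long noncoding RNA genes was 5.03%. Gm42418 thus lay above that median and the others below it. Ribosomal repeats outside the assembly were not searched.

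Open reading frames differed in length among the 6. The longest frame from an ATG had 64 codons in Malat1, 66 in Snhg1, 81 in Gas5, 121 in Gm42418, 126 in Neat1 and 353 in Gm26917. The median of the 43 tested long noncoding RNA genes was 117 codons. Malat1, Snhg1 and Gas5 lay below it, and Gm42418, Neat1 and Gm26917 above it. The sequence of Gm26917 was 69.1% G or C and that of Gm42418 60.2%, against 40.5% to 47.3% in the other 4. The table gives 1 count per gene and library, so fragment length, position and reading frame were not analysed here, and no frame is shown to be translated.

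Genes with the most similar pattern were taken from those with a mean of at least 50 CPM, by Pearson's r of log2(CPM + 1) over the 6 libraries. With 6 points and at least 3256 genes to choose from, these are a description. For Gm42418 they were Hist1h2ae (r = 0.98) and Mat2a (r = 0.98), and for Gm26917 Prkar1a (r = 0.99) and Tnfrsf1a (r = 0.99). Malat1 was most like Usp54 (r = 0.95) and Bdp1 (r = 0.95), and Neat1 most like Keap1 (r = 0.98) and Pkd1 (r = 0.97). Gas5 was most like Ppp2r2a (r = 0.95) and Wnt6 (r = 0.95), and for Snhg1 Dcaf1 is given (r = 0.98).

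The 6 RNAs made up nearly all of the long noncoding share. Together they held 13.5% ± 0.778 of counts in WT and 11.1% ± 0.935 in KO, while all other long noncoding RNA genes held 0.297% ± 0.0042 and 0.277% ± 0.0066 (SD, n = 3 each, exact two-sided permutation p = 0.1 for both). Without Gm42418 and Gm26917, long noncoding RNA genes held 0.849% ± 0.101 in WT and 1.14% ± 0.367 in KO (SD, n = 3 each, exact two-sided permutation p = 0.2). That difference of 0.287 percentage points was 0.0782 without KO replicate 3. The most abundant others were Cct6a, Gm15564, AI506816, Ifi30 and Ndufb1-ps. Cct6a, typed as a processed transcript in this annotation, encodes a chaperonin subunit and had 906 ± 74.2 CPM in WT against 775 ± 131 CPM in KO (SD, n = 3 each). Ifi30, typed the same way, encodes a lysosomal thiol reductase. Part of the remaining share therefore belongs to known coding genes. Mitochondrial rRNA genes held 11.5% ± 2.76 in WT and 9.54% ± 2.13 in KO (SD, n = 3 each, exact two-sided permutation p = 0.4).

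**Figure D5:**
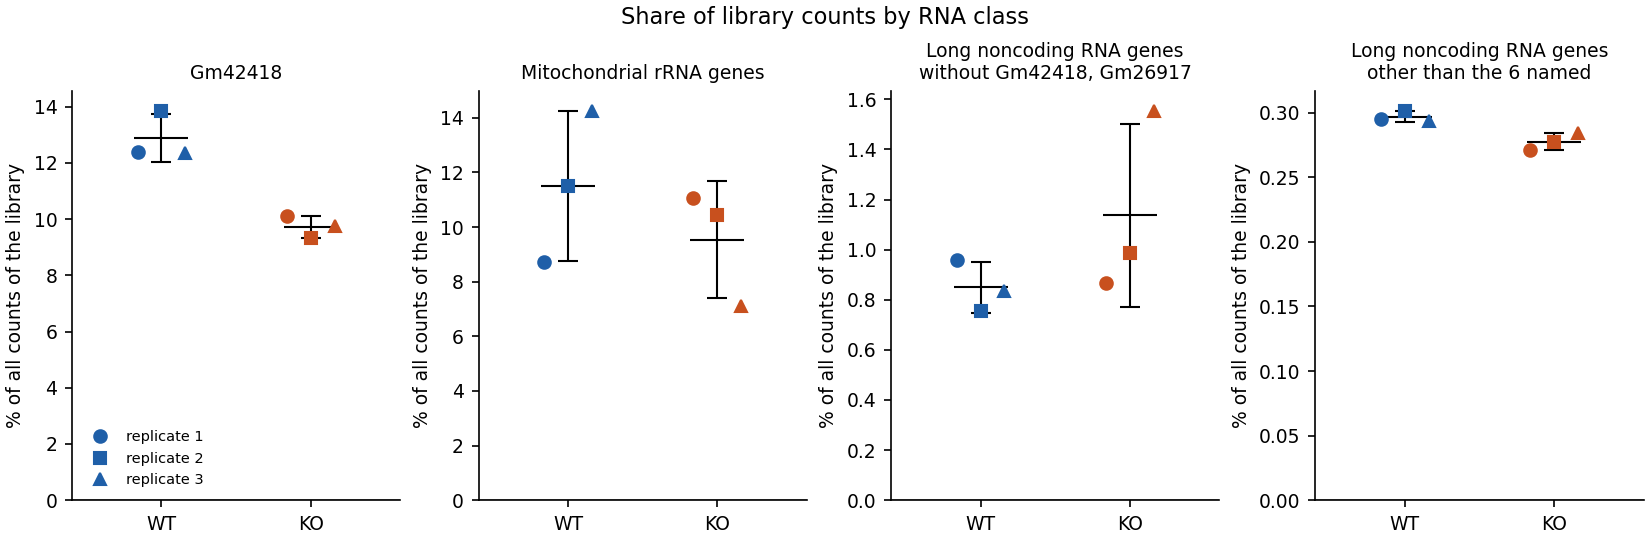
Share of all counts of a library, in percent, held by Gm42418, by the mitochondrial rRNA genes, by long noncoding RNA genes without Gm42418 and Gm26917, and by long noncoding RNA genes other than the 6 (4 panels, each from 0 on its own scale). Points are libraries and black bars the mean and SD. Gm42418 is lower in all 3 KO libraries, and the mitochondrial rRNA shares overlap.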

How the data were processed

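Ribosome footprints were measured in 6 ID8 libraries, 3 labelled WT and 3 labelled KO by their titles. Per the labels' protocols, RNase I fragments were isolated on a sucrose cushion and a gel, reads of 25 to 34 nt were kept, Bowtie served to discard rRNA and tRNA reads, and HISAT2 (genome GRCm38, mm10) and Bowtie (transcriptome) aligned what was left. Other tools in the submitters' processing notes are cutadapt, featureCounts and DESeq2. Not given in the sources used here were the annotation, strand setting, handling of reads with several matches and any duplicate removal. The authors deposited whole-number counts per Ensembl gene, not normalized. Without molecular identifiers, PCR copies may be counted repeatedly, and count floors cover counting error only.

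Of 53465 identifiers, 53360 matched GENCODE M21. Genes kept by filterByExpr (8200) were tested with edgeR 4.0.16 in R 4.3.3 (robust quasi-likelihood, TMM, Benjamini-Hochberg over all genes, threshold 0.05). The common biological coefficient of variation was 0.99. Shares and ratios were tested by exact two-sided permutation of libraries. The modal count was the peak of the smoothed histogram (bandwidth 3) between counts of 8 and 150. The fit was tested on simulated counts. Sequences came from RefSeq GRCm38.p6, and 3 of the 6 RNAs had an entry among the promoters. Alternatives were DESeq2 1.42.0, other size factors and filters, molecule equivalents, the replicate number as a block, each library left out, other denominators, lengths and words. Named genes were the 6 members, rRNA-like and snoRNA host genes with at least 10 counts in a library, called noncoding genes, the 2 smallest p of other lists, the 2 most similar genes, the 5 most abundant other long noncoding RNAs and neighbours. Some are not reported here. Tug1, Rn7sk, Rny3, Krt18, Krt8 and Cdh1 were chosen after their values were seen. The members and lists were chosen with earlier results of these data known. Python 3.11.15, pandas 2.3.3, numpy 2.4.6, scipy 1.17.1, numba 0.67.0 and matplotlib 3.10.9 were used.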

Additional observations from a re-analysis of the deposited data

How the results depend on the processing

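The number of genes called was 91 with no count filter, 110 on molecule equivalents and 235 with DESeq2, against 33, and ran from 6 to 29 as each library was left out. Gm42418 kept its direction under all 15 other settings and its call under 11. With the replicate number as a block its log2 fold change was -0.51 and it was no longer called (adjusted p = 0.0721 in edgeR), and 38 genes were. Neat1 with this block had 1.45 (SE 0.34, adjusted p = 0.0811 in edgeR), against 1.10 (SE 1.10) without it, and was not called either. Deviations from the group mean had r from -0.017 to -0.0026 between same-numbered libraries and from -0.020 to 0.028 between the others. With a common biological coefficient of variation of 0.99, such small values cannot decide whether the numbers pair the libraries. Malat1 had 0.53 with no count filter and was then called. As each library was left out, log2 fold changes ran from -0.56 to -0.44 for Gm42418, 0.15 to 0.71 for Malat1, 0.044 to 2.27 for Neat1, 1.48 to 3.41 for Gm26917, -0.026 to 0.19 for Gas5 (-0.026 without WT replicate 1 and -0.016 without KO replicate 3) and -1.74 to -0.0088 for Snhg1. Gas5 and Snhg1 were not tested on molecule equivalents. The share of long noncoding RNA genes differed by -2.40 percentage points, and by 0.56 without the 10 most abundant genes, which removes Gm42418 itself. Gas5 had a density of 20.2 CPM per kb with the longest transcript. With words of 25 and 34 bases the share found elsewhere was 33.0% and 24.3% in Gm42418, 3.48% and 1.62% in Neat1, 3.33% and 1.27% in Gm26917, 2.17% and 0.410% in Gas5, and 4.35% and 1.47% in Snhg1. Other causes were not tested. Gas5 and Snhg1 had at most 236 counts in a library, which limits both. Mean densities without each library were computed after the data were seen.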
